A study of Mus musculus with 4 samples.

Results

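The cells described here were 2890 lateral plate mesoderm cells that carried *Foxf1* and *Hand2* RNA and little or no *Nkx2-3*, *Hlx*, *Tbx4* or *Cdh5* RNA, out of 20198 filtered single cells of mouse embryos at E8.5, of which the caudal part was taken. They were chosen in 2 steps. A cell first needed at least 3000 detected genes, at least 7500 UMIs (unique molecular identifiers, each of which stands for 1 captured RNA molecule) and at most 7% of its UMIs from mitochondrial genes. It then needed at least 2 UMIs of *Foxf1*, at least 1 of *Hand2*, at most 1 of *Nkx2-3* and *Hlx* together, at most 1 of *Tbx4* and 0 of *Cdh5*. These cells are called *Foxf1* cells here. Since RNA counts chose them, their levels of these 6 genes are a description and not a finding.

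The series holds 4 libraries of droplet-based single-cell RNA sequencing, 2 labelled wild-type (WT) and 2 labelled *Grhl3*-null. All embryos came from an intercross of *Grhl3*+/- mice on the C57BL/6 background and were untreated. The null embryos lack *Grhl3* constitutively, so the loss is not limited to a cell type by a promoter or a Cre line. The caudal parts of 5 WT embryos were pooled, as were those of 3 *Grhl3*-null embryos, and 2 libraries were made from each pool. Libraries of the same genotype therefore differ for technical reasons and by which cells of the pool were captured. A p-value between genotypes compares 2 pools of embryos, and the pool and the genotype cannot be told apart. The *Foxf1* cells numbered 753 and 704 in WT and 732 and 701 in *Grhl3*-null, in the order replicate 1 and replicate 2, which is kept for all values that follow. Summed over these cells, the depth was 33467936 and 33321880 UMIs for WT, and for *Grhl3*-null it was 37540653 and 34499576. The median cell of the WT libraries had 37123 and 38411 UMIs, that of the *Grhl3*-null libraries 40821 and 38509. Between 7 and 16 cell barcodes were shared by a pair of libraries, and at most 1 of these belonged to *Foxf1* cells in both.

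Lateral plate mesoderm is the sheet of mesoderm on either side of the somites and the intermediate mesoderm. It splits into a somatic layer, which lies against the ectoderm and gives rise to body wall and limb mesenchyme, and a splanchnic layer, which lies against the endoderm and gives rise to the muscle and connective tissue of the gut, to the heart and to vessels. FOXF1, a forkhead transcription factor, is known as a mark of the splanchnic layer and as a target of Hedgehog signals from the gut endoderm, and HAND2 is a basic helix-loop-helix factor of lateral plate, heart and limb. NKX2-3 and HLX are homeodomain factors of the mesenchyme around the gut, TBX4 is a T-box factor of the hindlimb field and the allantois, and CDH5 is the cadherin of endothelial junctions. On the left side only, the lateral plate is known to receive the secreted factor NODAL, which switches on its own antagonist *Lefty2*.

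*Grhl3*, the targeted gene, matched the labels. Over all filtered cells its UMIs numbered 878 and 803 in WT but 12 and 14 in *Grhl3*-null. The *Foxf1* cells held little of it in either genotype, with 12 and 23 UMIs in 7 and 18 WT cells and 0 UMIs in both *Grhl3*-null libraries. The gene lies at chr4:135541888-135573630 on the mm10 mouse genome.

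Among the genes that mark the chosen cells, *Foxf1* and *Hand2* were used to choose them, and *Hoxd1* and *Unc5c* were not. *Foxf1* stood at 204 and 203 CPM (counts per 1000000 UMIs of the summed cells) in WT and at 189 and 189 CPM in *Grhl3*-null, against a mean of 38.3 CPM in all other filtered cells. *Hand2* stood at 99.4, 97.4, 101 and 101 CPM, against 11.2 CPM elsewhere. *Hoxd1*, an anterior-group Hox gene, stood at 122 and 118 CPM in WT and 122 and 117 CPM in *Grhl3*-null, against 32.6 CPM in the other cells. *Unc5c*, a netrin receptor, stood at 29.4, 29.2, 31.8 and 32.9 CPM against 8.12 CPM. The levels of *Hoxd1* and *Unc5c* differed far less between libraries than between the *Foxf1* cells and the other filtered cells. *Hoxd1* is also among the lateral plate markers that the study chose on these samples, so its level is not an independent check of the label. *Nkx2-3* was between 0.180 and 0.359 CPM, *Tbx4* between 0.990 and 1.33 CPM, and *Cdh5* was at 0 as the rule required.

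The share of cells with a UMI of these markers was far lower in a class of cells that should lack them. With every cell thinned to 7500 UMIs, *Hoxd1* had a UMI in 54.1% and 53.7% of the WT and in 54.4% and 52.4% of the *Grhl3*-null *Foxf1* cells. In haemoglobin-rich cells, a class that should lack the gene (at least 500 *Hba-x* UMIs, between 50 and 70 cells a library), the shares were 1.43%, 0%, 1.67% and 4.41%. The median of these cells was between 36345.5 and 47071 UMIs before thinning, close to that of the *Foxf1* cells. *Unc5c* was seen in 16.6%, 17.9%, 21.0% and 18.5% of the thinned *Foxf1* cells and in 1.43%, 0%, 0% and 2.94% of the haemoglobin-rich cells.

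The thresholds cut through a continuous range. The median *Foxf1* cell had 8 *Foxf1* and 4 *Hand2* UMIs, but 249 cells (8.62%) had exactly 2 *Foxf1* UMIs and 548 exactly 1 *Hand2* UMI. Just outside, 374 cells failed only by having 1 *Foxf1* UMI, and 1336 failed only by having no *Hand2* UMI. At the other limits, 363 chosen cells had 1 UMI of *Nkx2-3* or *Hlx* while 202 cells failed with exactly 2, and 71 cells failed only for a *Cdh5* UMI.

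*Foxf1* cells made up 13.8% of the filtered cells in both WT libraries (95% Clopper-Pearson intervals 12.9 to 14.7% and 12.8 to 14.7%) and 15.1% and 14.7% in the *Grhl3*-null libraries (14.1 to 16.2% and 13.7 to 15.7%). Such intervals cover counting error only. The means differed by 1.11 percentage points, and the exact permutation test over the 4 libraries gave p = 0.333, two-sided, which is the smallest p that 2 libraries against 2 allow. With a stricter gate (at least 3 *Foxf1* and 2 *Hand2* UMIs) the difference was 0.02 points. Split by the sex of the cell, the difference had opposite signs. Among male cells the share was lower in *Grhl3*-null than in WT by 4.19 points (12.1% against 16.3%), and among female cells it was higher by 6.34 points (18.6% against 12.2%). Cells of different sex in a pool come from different embryos.

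**Figure D1:**
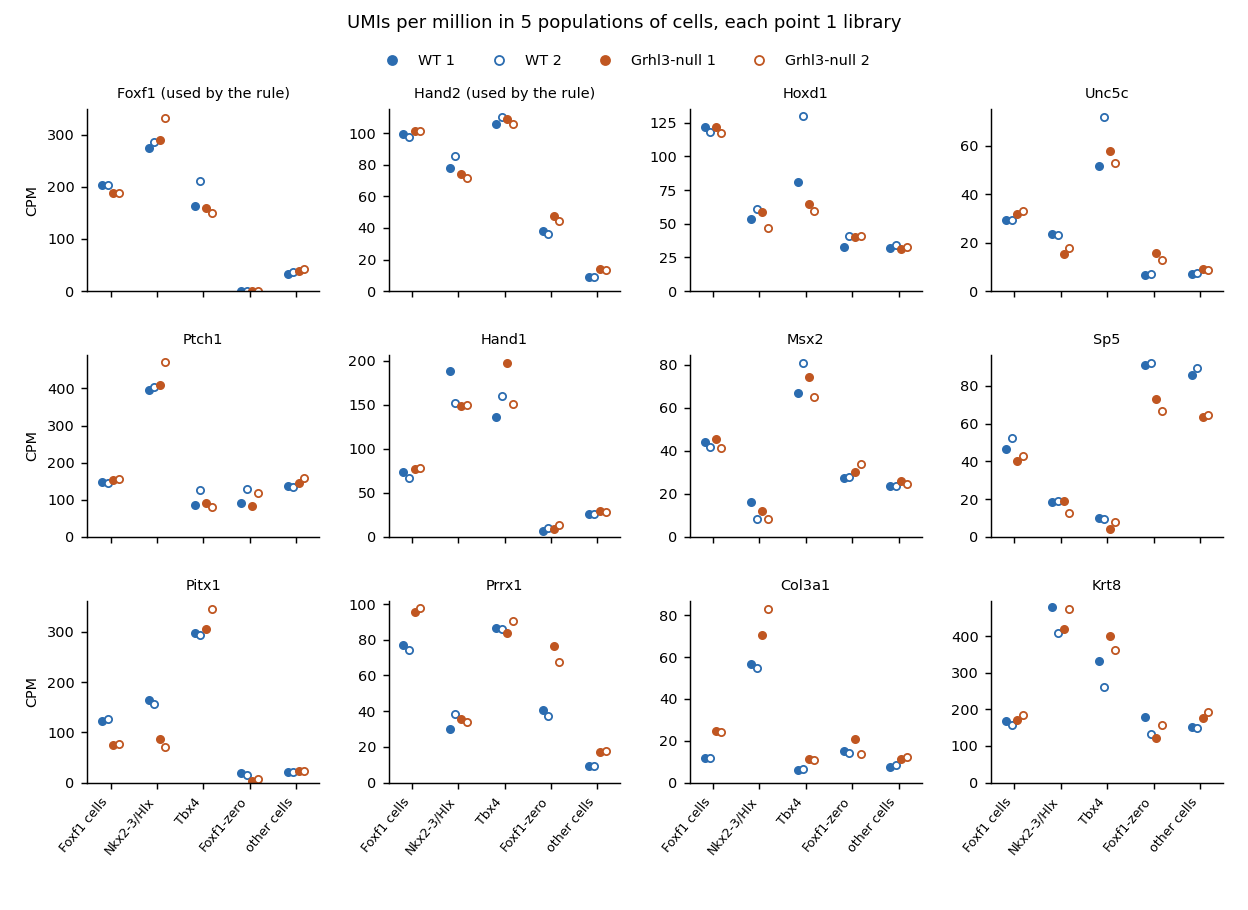
Level of 12 genes (CPM, linear axis starting at 0) in the *Foxf1* cells, in their 3 neighbour populations and in all other cells, with 1 point per library (blue, WT and orange, *Grhl3*-null, filled for replicate 1 and open for replicate 2). *Hand1*, *Ptch1* and *Krt8* sit higher in the *Nkx2-3*/*Hlx* cells than in the *Foxf1* cells, and *Msx2* and *Sp5* sit lower.

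To see what else set the *Foxf1* cells apart, they were placed beside 3 populations of the same libraries that each broke 1 criterion of the rule. The *Nkx2-3*/*Hlx* cells (653 cells) had at least 2 UMIs of these genes together, the *Tbx4* cells (411 cells) had at least 2 *Tbx4* UMIs, and the *Foxf1*-zero cells (709 cells) had *Hand2* but no *Foxf1* UMI. Genes were compared by edgeR's quasi-likelihood test on summed UMIs with the library as a block, and a gene was called where its Benjamini-Hochberg adjusted p was under 0.05 and its log2 fold change was at least 0.5 in size. The populations were cut from the same cells by the RNA of 6 genes, which were left out of the calls. The calls describe which genes went with the cut and are not independent evidence for it, so no p-values are given for them.

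Compared with the *Nkx2-3*/*Hlx* cells, the *Foxf1* cells had more RNA of Wnt-responsive genes and less of Hedgehog targets, of keratins and of collagens. Of 12888 genes, 431 (3.34%) were called higher and 951 (7.38%) lower in the *Foxf1* cells, and the median log2 difference of all genes was 0.01. Of 13 Wnt genes tested, 10 were called higher and 1 lower, with a median log2 difference of 0.66. *Sp5*, a zinc-finger gene that Wnt signals switch on, stood at 46.3, 52.6, 40.0 and 42.9 CPM in the *Foxf1* cells and at 18.5, 19.2, 19.2 and 12.4 CPM in the *Nkx2-3*/*Hlx* cells, a log2 difference of 1.39 (SE 0.08). Every *Foxf1*-cell library lay above every *Nkx2-3*/*Hlx*-cell library. The sum of all other filtered cells had more *Sp5* than either, at between 63.6 and 89.5 CPM. The Wnt antagonist *Nkd1* had 68.8, 72.1, 69.4 and 62.9 CPM against 29.9, 31.0, 30.9 and 23.8 CPM, a difference of 1.24 (SE 0.05). *Axin2*, the feedback inhibitor of the pathway, was higher by 1.12 (SE 0.06), at between 51.1 and 59.1 CPM against between 23.2 and 27.8 CPM. *Lef1*, whose product binds DNA for the pathway, differed by 0.61.

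Because the Wnt-responsive genes were high together, the promoters of the list were searched for ATCAAAG, the core letters that TCF and LEF factors bind, on either strand (CTTTGAT on the other), in the 300 bases from 250 before to 50 after the gene start. Of 32851 mouse promoters of this length in RefSeq, 1225 (3.73%) held the letters. The 12 Wnt-list genes in that table had 17 promoters, of which 2 held the letters, that of *Sp5* and 1 of 3 of *Wnt5b*. The *Sp5* promoter is shown since this gene had the largest log2 difference of the Wnt genes named above. It runs along the plus strand at chr2:70474673-70474972 of GRCm38.p6, and capitals mark the match, which is a description of the letters and not a measured binding site.
*Sp5* promoter: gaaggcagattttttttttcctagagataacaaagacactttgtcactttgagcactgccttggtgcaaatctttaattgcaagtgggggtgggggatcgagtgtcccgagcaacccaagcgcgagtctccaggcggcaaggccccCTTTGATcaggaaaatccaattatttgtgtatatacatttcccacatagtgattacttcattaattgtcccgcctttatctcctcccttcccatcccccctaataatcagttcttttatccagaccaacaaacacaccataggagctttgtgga

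Genes of the Hedgehog response were lower in the *Foxf1* cells than in the *Nkx2-3*/*Hlx* cells, with 5 of 11 called lower, none called higher and a median of -0.31. *Ptch1*, the Hedgehog receptor and a target of the pathway, had 148, 144, 154 and 155 CPM in the *Foxf1* cells against 396, 405, 408 and 471 CPM, a log2 difference of -1.48 (SE 0.03). The libraries of the 2 populations did not overlap. *Hhip*, which binds and holds back Hedgehog ligands, differed by -2.81 (SE 0.13), at between 1.41 and 3.33 CPM against between 9.73 and 22.2 CPM. *Gli1*, a transcription factor of the response, differed by -0.89 (SE 0.08), at between 14.2 and 15.4 CPM against between 24.1 and 32.5 CPM.

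The splanchnic factors were divided. Of 19 tested, 3 were called higher and 9 lower in the *Foxf1* cells than in the *Nkx2-3*/*Hlx* cells, with a median of -0.34. *Foxf2*, the close relative of *Foxf1*, stood at 11.8, 11.2, 12.8 and 12.5 CPM against between 35.0 and 45.3 CPM, a difference of -1.72 (SE 0.08). *Hand1*, the relative of *Hand2*, differed by -1.11. *Osr1*, a zinc-finger factor of lateral plate and intermediate mesoderm, went the other way, with 92.3, 91.2, 79.7 and 75.5 CPM against 36.7, 38.6, 43.1 and 50.4 CPM and a difference of 1.00 (SE 0.09). The other 2 called higher, *Tbx5* and *Tbx2*, were at or under 2.67 CPM in every *Foxf1*-cell library.

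Of 12 somatic and limb factors, 9 were called higher and 1 lower, with a median of 0.87. *Msx2*, a homeobox gene that responds to BMP signals, had 44.3, 41.7, 45.6 and 41.4 CPM in the *Foxf1* cells and 16.0, 8.45, 11.9 and 8.34 CPM in the *Nkx2-3*/*Hlx* cells. The log2 difference was 1.96 (SE 0.10), the largest among the genes with a mean of at least 20 CPM over both populations. *Prrx1*, a homeobox gene of limb and body wall mesenchyme, had 76.9, 74.5, 95.7 and 97.5 CPM against 30.1, 38.6, 35.7 and 34.1 CPM, a difference of 1.31 (SE 0.07). *Cited1*, a transcriptional cofactor, followed at 1.84 (SE 0.06), and *Evx1*, an even-skipped homeobox gene of the posterior embryo, at 1.48 (SE 0.11). *Evx1os* runs antisense to *Evx1* (1.81), and whether the counting used strand is not given in the sources used here, so their UMIs may not be fully separate.

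Of the matrix and adhesion genes, 8 of 15 were called lower and none higher, with a median of -0.53. *Krt8*, a keratin of simple epithelia, had 168, 158, 170 and 184 CPM against 479, 408, 419 and 474 CPM, a difference of -1.39 (SE 0.03). *Col3a1*, a fibrillar collagen, differed by -1.91 (SE 0.10). The steepest difference among genes with a mean of at least 20 CPM was that of *Hsd11b2*, the enzyme that inactivates glucocorticoids, with 18.0, 17.1, 18.7 and 21.4 CPM against 136, 135, 123 and 150 CPM (-2.85, SE 0.05). *Aplnr*, the apelin receptor (-2.11), *Adamts9*, a matrix protease (-2.04), and *Acta2*, smooth muscle actin (-1.68), were lower too. *Hoxd1* and *Unc5c* were higher in the *Foxf1* cells, by 1.12 (SE 0.05) and 0.63 (SE 0.10).

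Markers of other tissues were not equal in these 2 populations. All 5 endothelial markers tested were called lower in the *Foxf1* cells (median -1.51), although both populations were chosen with no *Cdh5* UMI. All 4 paraxial markers and all 5 visceral endoderm markers were called higher (medians 1.21 and 1.49), among them *Tcf15*, a factor of early somites, at 30.6, 26.3, 39.5 and 45.0 CPM against 5.55, 10.2, 30.2 and 8.96 CPM. All 4 neural markers (median 0.74) and 3 of 4 of intermediate mesoderm (0.95) were called higher too, while all 4 erythroid markers tested (-1.07) and 2 of 3 of cardiomyocytes (-0.86) were called lower. Of the gut endoderm list, 1 of 6 was higher and 2 were lower, and of the surface ectoderm list 1 of 3 was higher. Among genes known to respond to tissue dissociation, *Jun* (-0.78), *Junb* (-0.68), *Atf3* (-1.40) and *Socs3* (-0.72) were called lower and none higher. The part of these markers and genes in the differences above was not tested.

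**Figure D2:**
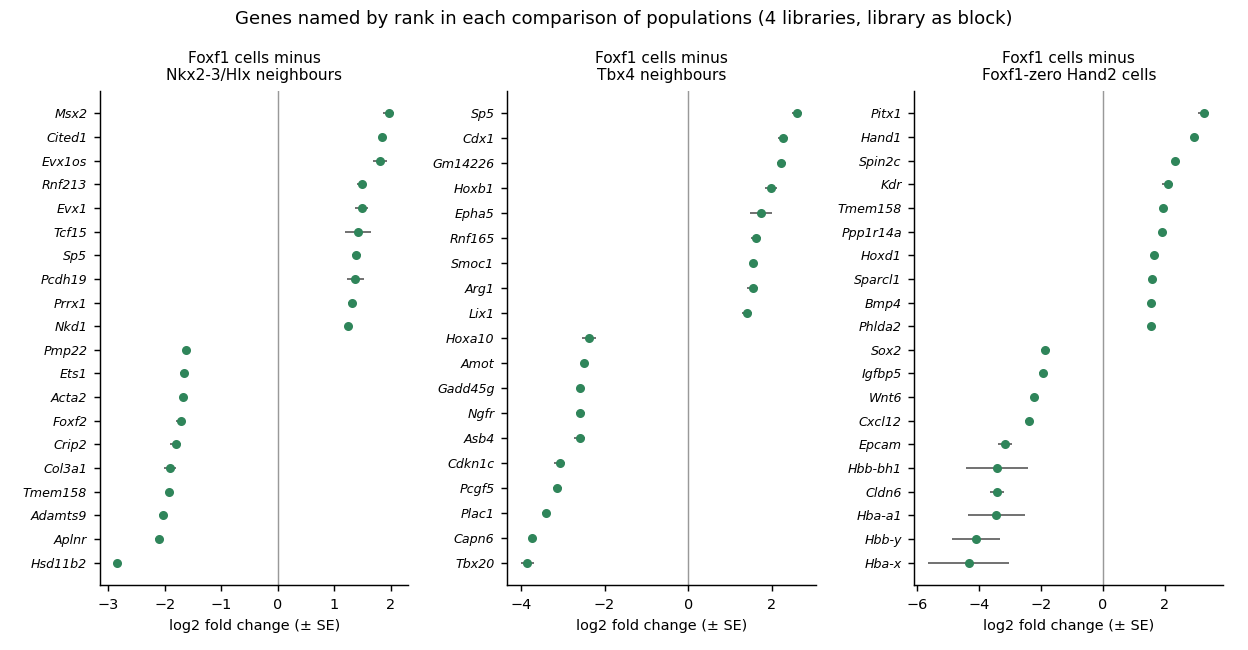
Log2 difference (*Foxf1* cells minus neighbour, bars are 1 SE) for genes named by rank in each of the 3 comparisons, up to 10 per direction among genes with a mean of at least 20 CPM. *Msx2* leads the genes higher than in *Nkx2-3*/*Hlx* cells at 1.96 and *Sp5* those higher than in *Tbx4* cells at 2.60.

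Compared with the *Tbx4* cells, the *Foxf1* cells had less RNA of Hox genes of groups 10 to 13. Of 12808 genes, 884 (6.90%) were called higher and 805 (6.29%) lower in the *Foxf1* cells, with a median log2 difference of 0.01 over all genes. All 8 tested Hox genes of groups 10 to 13, which pattern the hind part of the body and the limb, were called lower, with a median of -2.66. *Hoxa10* had 28.8 and 31.6 CPM in WT and 12.9 and 11.6 CPM in *Grhl3*-null *Foxf1* cells, against 99.7, 113, 96.8 and 95.7 CPM in the *Tbx4* cells (-2.38, SE 0.17). Of the 27 Hox genes of groups 1 to 9, 13 were called higher and 3 lower, with a median of 0.60. *Hoxb1* differed by 1.99. *Hoxd1* was higher by 0.61 (SE 0.13) but its libraries overlapped, since the *Tbx4* cells of WT replicate 2 had 130 CPM. *Unc5c* was lower in the *Foxf1* cells (-0.89, SE 0.08), at between 29.2 and 32.9 CPM against between 51.7 and 71.8 CPM, so it did not mark them off from the *Tbx4* cells.

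*Sp5* showed the largest positive difference among genes with a mean of at least 20 CPM (2.60, SE 0.12), with 9.89, 9.51, 4.43 and 8.06 CPM in the *Tbx4* cells. *Cdx1*, a caudal-type homeobox gene that sets axial position, followed with 48.2, 46.8, 46.7 and 40.6 CPM against 12.7, 12.0, 7.17 and 8.42 CPM (2.27). In the Wnt list as a whole, 4 of 14 genes were called in each direction. Hedgehog genes were called higher in 5 of 12 and lower in none (median 0.51), as were retinoic acid genes in 6 of 12 (median 0.54).

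Imprinted genes were lower in the *Foxf1* cells than in the *Tbx4* cells, and splanchnic and heart-field factors were divided. Of 10 imprinted genes, 7 were called lower and none higher (median -0.92), both growth-restraining ones and the growth factor gene *Igf2* (-0.66). *Cdkn1c*, an inhibitor of the cell cycle, had 94.8, 97.0, 94.9 and 107 CPM against 726, 492, 1148 and 1143 CPM (-3.08, SE 0.14). *Phlda2*, known for limiting placental growth, differed by -2.05 (SE 0.12). Of 19 splanchnic and heart-field factors, 9 were called lower and 5 higher (median -0.46), the latter including *Meis1* (1.40) and *Osr1* (0.99). The T-box factor *Tbx20* had at most 3.78 CPM in the *Foxf1* cells and between 24.2 and 70.0 CPM in the *Tbx4* cells (-3.85, SE 0.15). *Plac1*, a gene best known from the placenta (-3.41), and *Ngfr*, the low-affinity neurotrophin receptor (-2.58), were among the 10 largest negative differences. *Gata5* (-4.06), *Isl1* (-1.93) and *Twist1* (-1.87) were lower as well. Of 20 BMP genes, 8 were called lower and 1 higher (median -0.46), among them the decoy receptor *Bambi* (-1.20). Of the markers of other tissues, all 5 of visceral endoderm, all 4 tested of paraxial and all 4 of intermediate mesoderm were called higher in the *Foxf1* cells (medians 2.07, 0.99 and 1.99), *Lhx1* of the intermediate mesoderm by 3.43. Endothelial markers were called lower in 3 of 4 (median -1.25) and gut endoderm markers in 2 of 6 (-0.37), and 1 neural and 1 surface ectoderm marker were higher. Among genes known to respond to tissue dissociation, *Fos* (-0.59), *Jun* (-0.60), *Junb* (-0.98), *Hspa1a* (-1.17) and *Hspa1b* (-1.61) were called lower and none higher. The part of these markers and genes in the differences was not tested.

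Against the *Foxf1*-zero cells, the *Foxf1* cells were richer in splanchnic and posterior genes. Of 13040 genes, 413 (3.17%) were called higher and 1027 (7.88%) lower, with a median log2 difference of 0.01. Splanchnic factors were called higher in 11 of 18 and lower in 2 (median 1.07). *Hand1* had 73.1, 66.8, 76.8 and 78.3 CPM against 6.99, 9.71, 9.22 and 13.1 CPM (2.93, SE 0.09). *Tcf21*, a basic helix-loop-helix factor of visceral mesoderm, had between 21.7 and 28.1 CPM against between 2.43 and 4.31 CPM (2.78). *Pitx1*, a homeobox gene of the hind part of the lateral plate, had 122 and 126 CPM in WT and 75.0 and 76.1 CPM in *Grhl3*-null against 18.4, 15.6, 2.71 and 8.09 CPM (3.26, SE 0.17). *Bmp4* (1.55), *Hoxd1* (1.65) and *Unc5c* (1.53) were also higher, with no overlap of the libraries. All 7 tested Hox genes of groups 10 to 13 were called higher (median 2.32). Of the signalling lists, Wnt genes were called lower in 6 of 14 and higher in 2, Hedgehog genes lower in 5 of 12 and higher in 1, and retinoic acid genes lower in 5 of 12 and higher in 2.

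Markers of several other tissues were called lower in the *Foxf1* cells, as were 6 of 10 Fgf genes. All 6 gut endoderm markers tested, all 4 surface ectoderm, 4 neural and 4 paraxial markers, and all 6 erythroid markers tested were called lower. So were 3 of 4 markers of intermediate mesoderm, of which 1 was higher. Visceral endoderm markers were called lower in 1 of 5 (median 0.03), and endothelial markers went the other way, with 3 of 5 called higher and none lower (median 0.55). *Epcam*, an epithelial adhesion protein, differed by -3.16, *Sox2*, a neural progenitor factor, by -1.86, *Meox1*, a somite factor, by -1.15 and *Hba-x*, an embryonic globin, by -4.33 (SE 1.30). As a sum, the *Foxf1*-zero cells with a *Hand2* UMI thus carried markers of several germ layers.

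Between genotypes, the *Foxf1* cells of the *Grhl3*-null pool had far less RNA of the Nodal pathway and of posterior Hox genes, less *Pitx1* and *Wt1*, and more of the vascular genes *Etv2* and *Kdr* and of fibrillar collagens. Of 13592 genes tested, 286 (2.10%) were called higher and 140 (1.03%) lower in *Grhl3*-null, 3.13% in all, and the median log2 fold change was 0.00. The left-right list (3 of 4 tested genes called lower), the Hox genes of groups 10 to 13 (7 of 8 lower) and the endothelial list (3 of 5 higher) had a larger share of calls than this background. None of the 14 tested lateral plate markers of the study, 12 retinoic acid genes, 10 imprinted genes or 8 targets of p53 was called. Within the sexes some were, such as the retinoic acid genes *Aldh1a2* (2.00 in male and -2.38 in female cells) and *Rarb* (1.52 and -0.57). The study chose its lateral plate markers on these samples, so that list is not independent of them. Where genotypes are said below not to overlap, the genes had mostly been called or ranked by their difference first. How many of all tested genes did not overlap was not counted, so a lack of overlap is a description and no further support.

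Sex composition moved with genotype. Of the *Foxf1* cells whose sex could be called from Y-linked genes and *Xist*, 33.6% and 31.8% were male in WT and 46.2% and 45.5% in *Grhl3*-null. Of the 286 genes called higher, 111 were also called higher in male cells alone, 141 in female cells alone and 54 in both. Of the 140 called lower, 27 were called in male, 103 in female cells and 19 in both. Values within each sex are therefore given for many of the genes named.

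*Lefty2*, the secreted Nodal antagonist of the left lateral plate, showed the largest fall among the listed genes, the targeted gene *Grhl3* aside. Its UMIs numbered 966 and 1163 in WT (28.9 and 34.9 CPM) but 17 and 20 in *Grhl3*-null (0.453 and 0.580 CPM). The log2 fold change was -5.95 (SE 0.15, adjusted p = 1.2e-09). The WT RNA sat in few cells, 102 and 90 of 753 and 704, with up to 53 and 84 UMIs in a cell, against 15 and 12 cells with up to 2 and 4 UMIs in *Grhl3*-null. After thinning, 7.57% and 7.67% of WT and 0.546% and 0.143% of *Grhl3*-null *Foxf1* cells had a *Lefty2* UMI, and none of the haemoglobin-rich cells had any.

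Most of this RNA lay in female WT cells. Female *Foxf1* cells held 815 and 973 *Lefty2* UMIs in WT (84.4% and 83.7% of the library's *Foxf1*-cell total) but 1 and 3 in *Grhl3*-null. A further 142 and 179 UMIs of WT lay in cells whose sex could not be called. Male cells held 9 and 11 in WT and 12 and 16 in *Grhl3*-null (0.984, 1.27, 0.959 and 1.47 CPM), so that the male libraries of the genotypes overlapped and the log2 fold change was 0.10 (adjusted p = 0.94). The difference between the sexes was called (adjusted p = 3.5e-15, by the test described further on).

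*Nodal*, the ligand of the pathway, had 101 and 99 UMIs in WT but 2 and 2 in *Grhl3*-null *Foxf1* cells (adjusted p = 1.8e-06). *Lefty1*, the midline antagonist, had 20 and 36 UMIs against 2 and 4 UMIs (adjusted p = 0.0021). Neither gene overlapped between genotypes. *Nodal* also followed the female cells, at 4.70 and 4.63 CPM in female and 0 and 0.116 CPM in male WT cells.

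**Figure D3:**
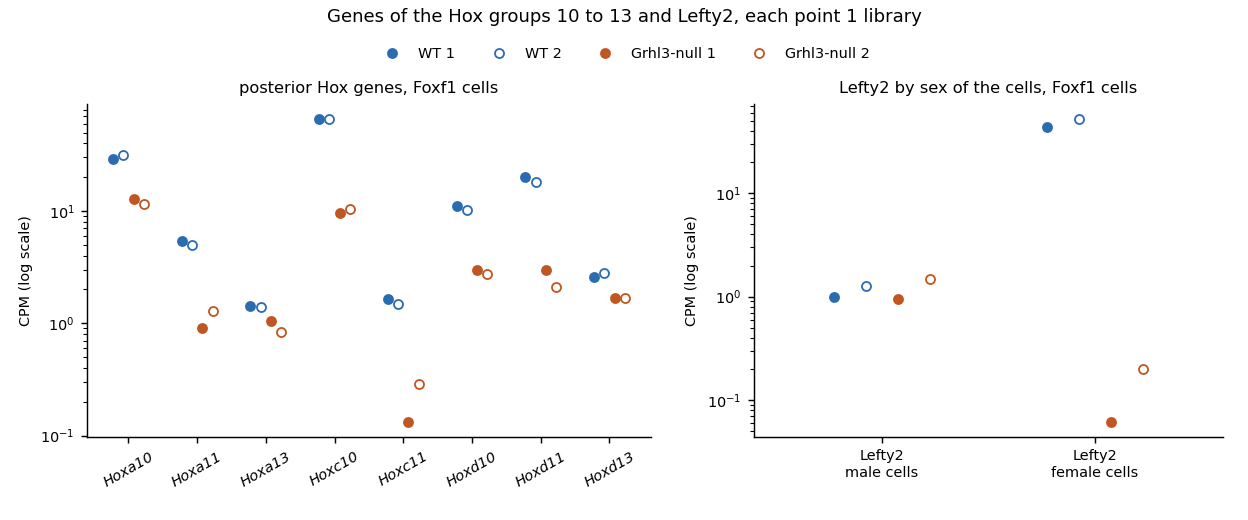
Left, level (CPM, log axis) of 8 Hox genes of groups 10 to 13 in the *Foxf1* cells of each library. Right, *Lefty2* (CPM, log axis) in male and in female *Foxf1* cells, where it is at 43.5 and 52.4 CPM in female WT cells and at or under 1.47 CPM in every other set.

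Posterior Hox genes were lower in the *Grhl3*-null *Foxf1* cells. Of 8 tested members of groups 10 to 13, 7 were called lower, none higher, and the median log2 fold change was -2.08. Summed over the list, their level was 137 and 137 CPM in WT and 32.6 and 31.1 CPM in *Grhl3*-null. *Hoxc10* had 65.6 and 65.8 CPM in WT and 9.59 and 10.4 CPM in *Grhl3*-null (-2.72, SE 0.05, adjusted p = 6.6e-11). It was lower in both sexes, with 37.1 and 34.1 against 4.39 and 7.09 CPM in male cells and 87.3 and 90.0 against 15.8 and 15.4 CPM in female cells. *Hoxd11* had 20.2 and 18.3 CPM in WT and 3.01 and 2.09 CPM in *Grhl3*-null (-2.91, SE 0.12, adjusted p = 1.1e-07). *Hoxa10* had 28.8 and 31.6 CPM against 12.9 and 11.6 CPM (-1.30, SE 0.07, adjusted p = 9.8e-07). The genotypes did not overlap for any of the 3, within either sex for *Hoxc10*. *Hoxa11* (-2.26), *Hoxd10* (-1.90) and *Hoxd13* (-0.69) were called too, as was *Hoxc11*, which had 55 and 50 UMIs against 5 and 10 UMIs. *Hoxa13* was not called (-0.59, adjusted p = 0.10).

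The difference was also seen outside the *Foxf1* cells. In all other filtered cells the same genes summed to 104 and 108 CPM in WT and 22.8 and 22.4 CPM in *Grhl3*-null, and the log2 fold changes of *Hoxc10*, *Hoxd11* and *Hoxa10* in the *Foxf1* cells differed from those in the other cells by 0.45, -0.07 and 0.12, under the size needed for a call. Of 10 members tested for such a difference, *Hoxa11* (-1.41), *Hoxa13* (-1.24) and *Hoxc11* (-1.61) were called, against 1.37% of all genes tested. *Hoxa11* and *Hoxc11* fell more steeply in the *Foxf1* cells, whereas *Hoxa13*, not called there, was called higher in the other cells (0.62). None of 27 Hox genes of groups 1 to 9 was called between genotypes (median 0.02). *Hoxb9*, the most abundant of them, had 241 and 261 CPM in WT and 333 and 336 CPM in *Grhl3*-null (0.41), under the fold needed for a call. Within the sexes some were called in either direction. In female cells *Hoxb9* was called higher (0.82) and *Hoxb1* lower (-0.59), and *Hoxa9* was called lower in male (-0.67) and higher in female cells (0.70).

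Among splanchnic factors, 2 of 19 were called higher and 3 lower in *Grhl3*-null (median 0.15), against 2.10% and 1.03% of all genes tested. *Wt1*, a zinc-finger factor of the mesothelium and urogenital ridge, had 4.30 and 4.50 CPM in WT and 1.09 and 1.10 CPM in *Grhl3*-null (adjusted p = 2.2e-05). Its WT RNA lay mostly in female cells, at 5.45 and 6.19 CPM against 1.53 and 0.925 CPM in male cells. In male cells the genotypes overlapped, with 1.52 and 1.75 CPM in *Grhl3*-null (log2 fold change 0.40, adjusted p = 0.64). *Isl1*, a LIM-homeodomain factor of heart and hindlimb progenitors, had 35.1 and 37.8 CPM in WT and 25.7 and 22.7 CPM in *Grhl3*-null (-0.59, SE 0.07, adjusted p = 2.0e-04). *Barx1*, a homeobox gene of stomach mesenchyme, fell too (-1.04), and *Tbx5* (0.80) and *Tbx18* (0.65) rose. *Isl1*, *Barx1* and *Tbx5* were called in male but not in female cells, where they differed by -0.43, -0.50 and 0.66. *Tbx18* had opposite signs in male (2.04) and female cells (-1.68).

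*Pitx1* stood at 122 and 126 CPM in WT and at 75.0 and 76.1 CPM in *Grhl3*-null (-0.71, SE 0.03, adjusted p = 3.3e-07). The genotypes did not overlap, and the log2 fold change was -1.07 in male and -0.29 in female cells, the latter short of the fold needed for a call. Of the 13 somatic and limb factors it was the 1 called lower, while *Irx3* (0.55) and *Irx5* (0.96), Iroquois homeobox genes, were called higher. *Irx5* had 9.29 and 9.57 CPM in WT and 18.4 and 18.5 CPM in *Grhl3*-null.

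Some genes of the early vessel programme were higher in *Grhl3*-null. *Etv2*, the ETS factor that starts the blood and vessel lineages, had 14.0 and 14.2 CPM in WT and 24.8 and 31.9 CPM in *Grhl3*-null (1.00, SE 0.10, adjusted p = 9.7e-05). *Kdr*, the VEGF receptor of the same lineages, had 35.8 and 34.4 CPM in WT and 58.7 and 67.4 CPM in *Grhl3*-null (0.84, SE 0.06, adjusted p = 7.8e-06). Neither overlapped between genotypes. Both rises were steeper in female cells (1.75 and 1.47) than in male cells (0.33 and 0.39), where neither was called, and the differences between the sexes were themselves called (adjusted p = 1.3e-11 for *Kdr*, by the test between sexes described further on). The endothelial list had 3 of 5 tested genes called higher, while *Fli1* (0.20) and *Plvap* (-0.17) were not called. One of the called genes, *Cldn5* (1.77), was not called without the cells that had no sex call (1.25) and was at -2.13 on thinned cells. The sum of the list was 61.2 and 60.7 CPM in WT and 96.7 and 110 CPM in *Grhl3*-null *Foxf1* cells, with *Kdr* the most abundant and *Cdh5* at 0. In the other filtered cells the sum was 87.0 and 92.7 CPM in WT and 126 and 127 CPM in *Grhl3*-null.

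Fibrillar collagens rose together. Of 15 matrix and adhesion genes, 3 were called higher (*Col1a1*, *Col1a2* and *Col3a1*) and 1 lower (*Vim*, vimentin, -0.53, with 0.23 in male and -0.67 in female cells). *Col1a2* had 25.9 and 24.5 CPM in WT and 45.4 and 44.3 CPM in *Grhl3*-null (0.83, SE 0.05, adjusted p = 2.0e-06). *Col3a1* had 11.6 and 11.7 CPM against 24.8 and 24.0 CPM (1.07, SE 0.06, adjusted p = 1.0e-06). Both were called in each sex, with 1.15 and 2.20 in male and 0.73 and 0.60 in female cells. *Ptn*, the secreted heparin-binding factor pleiotrophin, rose from 45.1 and 49.5 CPM to 84.0 and 89.3 CPM (0.87), with 1.40 in male cells and 0.31, not called, in female cells.

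Some metabolic genes were among the 20 with the largest differences. *Fdps*, an enzyme of isoprenoid and cholesterol synthesis, had 114 and 120 CPM in WT and 63.9 and 67.7 CPM in *Grhl3*-null (-0.83), and *Idh1*, isocitrate dehydrogenase (-0.76), and *Ldhb*, lactate dehydrogenase B (-0.70), fell too. *Bnip3*, a mitophagy receptor that responds to low oxygen, had 37.5 and 41.0 CPM in WT and 65.1 and 61.0 CPM in *Grhl3*-null (0.68). *Apela*, a peptide ligand of the apelin receptor, rose from 23.1 and 24.3 CPM to 41.5 and 38.1 CPM (0.75). The genotypes did not overlap for any of these 5 genes, which were picked by the size of their difference. All 5 were called in female cells and none in male cells, where *Fdps* differed by -0.10 against -1.17 in female cells, *Idh1* by -0.45, *Ldhb* by -0.38, *Bnip3* by 0.26 and *Apela* by 0.44.

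Few signalling genes were called, and over all genes tested 2.10% were called higher and 1.03% lower. BMP genes were called higher in 2 of 20 (*Bmp2* 0.60 and *Bmp5* 0.62), Fgf genes in 1 of 10 (*Fgfr2* 0.68) and guidance genes in 1 of 12. With lists this short, such counts are not read as a result about a list. *Bmp2* was called in both sexes, but *Bmp5* (1.57 and 0.18) and *Fgfr2* (1.38 and 0.27) in male and not in female cells. The guidance gene was *Sema3a*, a repulsive guidance ligand, at a mean of 5.99 CPM in WT and 13.1 CPM in *Grhl3*-null (1.13, SE 0.08, adjusted p = 7.8e-06), which was called in both sexes. Of 14 Wnt genes, 2 were called lower, the Wnt potentiator *Rspo1* (-1.08) and the inhibitor *Dkk1* (-0.57). *Rspo1* was called in opposite directions in the sexes, at 0.90 in male and -1.58 in female cells, and *Dkk1* was called in male (-1.27) and not in female cells (-0.30). Of 12 Hedgehog genes, *Shh* (1.48) and *Hhip* (1.04) were called higher, and *Ptch1* and *Gli1* were not called. *Shh* was not called in female cells (1.07, adjusted p = 0.17) and did not pass the filter on low counts in male cells. *Hhip* differed by 2.39 in male cells and by 0.13, not called, in female cells. *Epha5*, an ephrin receptor, had 57.1 and 61.5 CPM in WT and 106 and 101 CPM in *Grhl3*-null (0.80), with no change in male cells past the threshold (-0.10) and 1.67 in female cells.

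**Figure D4:**
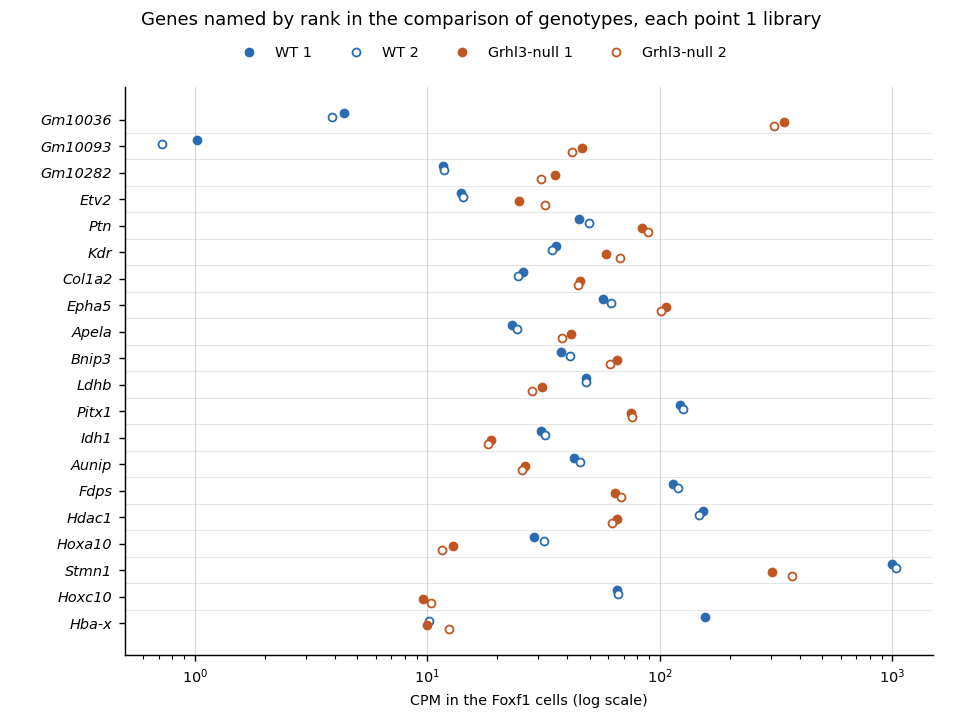
Level (CPM, log axis) in the *Foxf1* cells of each library for the 20 genes with the largest genotype difference, 10 per direction among called genes with a mean of at least 20 CPM. *Hba-x* is high in WT replicate 1 alone, at 156 CPM against 10.2 CPM in WT replicate 2.

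Several of the largest differences were in genes whose reads can fall on a near copy, or that lie near *Grhl3* on chromosome 4. *Gm10036*, an *Rpl11*-like sequence with 99.4% identity to that ribosomal protein gene, had 4.36 and 3.90 CPM in WT and 343 and 311 CPM in *Grhl3*-null (6.30). *Rpl11* itself had 3481 and 3516 CPM in WT and 2974 and 2952 CPM in *Grhl3*-null, and the sums of the pair were 3485, 3520, 3317 and 3263 CPM. *Gm10093* (1.02 and 0.720 CPM against 46.1 and 42.0 CPM) is a near copy of *Hdac1*, a histone deacetylase (153 and 147 CPM against 65.2 and 62.2 CPM), and the sums of this pair were 154, 147, 111 and 104 CPM. *Gm10282* (11.7 and 11.8 CPM against 35.4 and 30.9 CPM) is one of *Hmgn2*, a nucleosome-binding protein (654 and 714 CPM against 523 and 551 CPM), with sums of 666, 726, 558 and 582 CPM. The summed level was thus lower in both *Grhl3*-null libraries for all 3 pairs. Levels of these pairs are uncertain, since reads can be split between the copies. *Rpl11*, *Hmgn2* and *Hdac1* lie 0.48, 1.59 and 6.03 Mb from *Grhl3*. Genes near *Grhl3* for which the search described below found no near copy moved as well. That search also returned none for *Hdac1* itself, so a copy could have been missed. The tubulin-binding gene *Stmn1*, at chr4:134468320-134473843 and 1.09 Mb away, fell from 993 and 1041 CPM to 305 and 369 CPM (-1.60), and *Aunip*, 1.04 Mb away, fell by 0.77 on the log2 scale. Within 5 Mb of *Grhl3*, 13 of 122 tested genes were called (10.7%), and within 10 Mb 15 of 222 (6.76%), against 27 of 622 on the chromosome beyond 10 Mb (4.34%) and 383 of 12735 on other chromosomes (3.01%). The strain origin of the chromosome around the null allele was not tested.

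Markers of other tissues moved with genotype in these cells. All 5 visceral endoderm markers were called higher in *Grhl3*-null, and their sum was 6.69 and 8.46 CPM in WT and 39 and 59.8 CPM in *Grhl3*-null, against 49.6 and 49.4 CPM and 132 and 138 CPM in the other cells. *Rbp4*, the plasma retinol carrier, was the most abundant of them. Its *Grhl3*-null UMIs lay mostly in male cells in replicate 1 (68.0%) but in female cells in replicate 2 (65.2%), and both libraries came from the same pool. All 4 neural markers were called higher, with sums of 15.7 and 19.5 CPM in WT and 36.6 and 30.7 CPM in *Grhl3*-null and *Sox2* the most abundant (0.93 in male and -0.00 in female cells). Of 6 gut endoderm markers 2 were called higher (sums 21.6, 35.3, 46.6 and 48.5 CPM, *Krt19* the most abundant), while the surface ectoderm list had none of 4 called (sums between 10.9 and 13.6 CPM). Of 4 paraxial markers, 1 was called higher (*Tcf15*, which was called lower in female cells, sums 89.6, 84.6, 102 and 115 CPM), as was 1 of 4 intermediate mesoderm markers (*Pax2*, sums between 106 and 124 CPM). Of 3 tested cardiomyocyte markers *Actc1* was called lower (-1.12, with 0.52 in male and -1.93 in female cells), and the 1 germ cell marker tested was not called. *Shh*, the 1 notochord marker tested, was called higher (list sums 0.807, 1.77, 3.81 and 3.04 CPM). Their part in the genotype differences was not tested.

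Some of this RNA sat in cells whose sex could not be called, because they carried both male and female RNA or too little of either. These were 116 and 113 of the WT and 108 and 117 of the *Grhl3*-null *Foxf1* cells. Their median UMI number was 30030 and 34324 in WT but 69484.5 and 63724 in *Grhl3*-null, where they held 23.4% and 24.5% of the UMIs of the *Foxf1* cells. By Scrublet score, 16.4% and 23.0% of them in WT and 27.8% and 29.9% in *Grhl3*-null were among the 5% of each library most like doublets. They held 43.1% and 46.6% of the WT and 79.2% and 81.6% of the *Grhl3*-null *Tcf15* UMIs. With these cells left out, 261 genes were called higher and 165 lower in *Grhl3*-null, and *Tcf15* changed from 0.57 to -0.81. Of the listed and ranked genes, *Sox2* (0.24), *Nkx6-1* (0.75), *Pax2* (0.67), *Tbx18* (0.21), *Shh* (0.54) and *Cldn5* (1.25) were no longer called, so that 2 of the 4 neural and 2 of the 3 endothelial genes called before were still called. *Isl1* (-0.48) and *Vim* (-0.44) were then under the fold needed for a call.

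Erythroid RNA moved in the opposite direction, and it rested on 1 library. The erythroid sum was 293 CPM in WT replicate 1 and 29.4, 28.9 and 33.0 CPM in the others. *Hba-x* had 156 CPM in WT replicate 1, from 2 haemoglobin-rich cells, and 10.2, 10.0 and 12.4 CPM elsewhere. Its log2 fold change was -2.90 (SE 0.83, adjusted p = 0.038) with that library and 0.13 without it.

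Of 11 genes known to respond to tissue dissociation, 3 were called lower in *Grhl3*-null and none higher. Their sum was 189 and 192 CPM in WT and 153 and 158 CPM in *Grhl3*-null. *Fos*, an immediate early gene, had 7.59 and 7.05 CPM against 3.04 and 3.36 CPM (-1.20, SE 0.11, adjusted p = 7.5e-05), and *Fosb* (-1.90) and *Jun* (-0.59) were called too. In male cells neither *Fos* (-0.95) nor *Fosb* (-0.90) was called and *Jun* was called higher (0.52), while in female cells all 3 were called lower (-1.06, -1.86 and -1.05). In the other filtered cells the sum was 192 and 193 CPM in WT and 175 and 178 CPM in *Grhl3*-null. The part of dissociation in the genotype differences was not tested.

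The genotype difference was set against that of all other filtered cells in 1 model with a population by genotype term. The other cells are a mixture whose make-up can differ between genotypes. Of 16323 genes, 107 (0.656%) had a higher and 117 (0.717%) a lower log2 fold change in the *Foxf1* cells. *Pitx1* fell in the *Foxf1* cells but stood at 21.6, 21.4, 22.7 and 23.5 CPM elsewhere, a difference of -0.80 between the fold changes. Set against the *Nkx2-3*/*Hlx* cells alone, the difference of *Pitx1* was 0.31, so its fall was not particular to the *Foxf1* cells. *Aldh1a2*, the main enzyme of retinoic acid synthesis in the embryo, had 36.5 and 34.9 CPM in WT and 26.8 and 29.0 CPM in *Grhl3*-null *Foxf1* cells, while it had 53.1 and 45.7 CPM and 62.4 and 61.3 CPM in the other cells (-0.68). *Robo2*, a Slit receptor, was level in the *Foxf1* cells (51.3, 48.7, 49.6 and 47.4 CPM) and higher in *Grhl3*-null elsewhere (17.0, 17.6, 26.6 and 29.4 CPM, difference -0.73). Other genes had a higher fold change in the *Foxf1* cells than elsewhere. *Hoxd9* was near level in the *Foxf1* cells (60.5, 63.4, 54.5 and 56.6 CPM) and lower in *Grhl3*-null elsewhere (45.2, 49.7, 23.8 and 24.0 CPM, difference 0.84). *Nkx1-2*, a gene of the caudal epiblast, rose from 26.9 and 27.6 CPM to 43.3 and 38.0 CPM in the *Foxf1* cells and was lower in *Grhl3*-null elsewhere (53.8, 55.6, 46.2 and 44.5 CPM, difference 0.86). Its rise was called in female (0.95) and not in male *Foxf1* cells (0.18). *Dll1* and *Dll3*, Notch ligands of the presomitic mesoderm, were lower in *Grhl3*-null in the other cells and differed by 0.64 and 0.68. Against the *Nkx2-3*/*Hlx* cells alone they differed by -0.27 and -0.33. Their pooled fold changes in the *Foxf1* cells were 0.00 and -0.36, but within the sexes both genes were lower in *Grhl3*-null. *Dll1* was at -0.61 in male and -0.67 in female cells, called in the latter. *Dll3* was at -0.86 and -0.90, called in both.

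Male and female *Foxf1* cells shared the genotype difference in some genes and differed in others. A test of the difference between the sexes, chosen after the values within each sex had been seen, called 494 of 12568 genes with a higher (3.93%) and 285 with a lower (2.27%) log2 fold change in male than in female cells, 6.20% in all. Of 11735 genes tested in both sexes, 78 were called in the same and 55 in the opposite direction. *Aldh1a2* had 7.55 and 7.17 CPM in WT and 29.6 and 29.0 CPM in *Grhl3*-null male cells, but 43.6 and 43.2 CPM in WT and 7.94 and 8.70 CPM in *Grhl3*-null female cells. The difference between the sexes was 4.38 (SE 0.15, adjusted p = 9.8e-26), so that the pooled values of this gene hid opposite differences. *Nr2f1*, a nuclear receptor, behaved alike (9.30, 6.71, 40.0 and 49.3 CPM in male and 24.0, 24.1, 8.74 and 6.92 CPM in female cells, 4.08). *Hoxa9* went the other way, with 146, 147, 91.0 and 92.2 CPM in male and 78.7, 86.1, 135 and 133 CPM in female cells (-1.38). *Cdx4* followed *Hoxa9*, with 389, 366, 231 and 231 CPM in male and 241, 249, 302 and 296 CPM in female cells. Of the lateral plate markers chosen by the study, 10 of 14 had a lower male fold change and none a higher (median -0.73), and of the Hox genes of groups 1 to 9, 12 of 27 had a lower and 3 a higher one (median -0.54). Of 8 posterior Hox genes, 1 was called (*Hoxd11*, 1.18). Since each sex of a pool is a different set of embryos, differences between embryos and an effect of sex cannot be told apart.

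**Figure D5:**
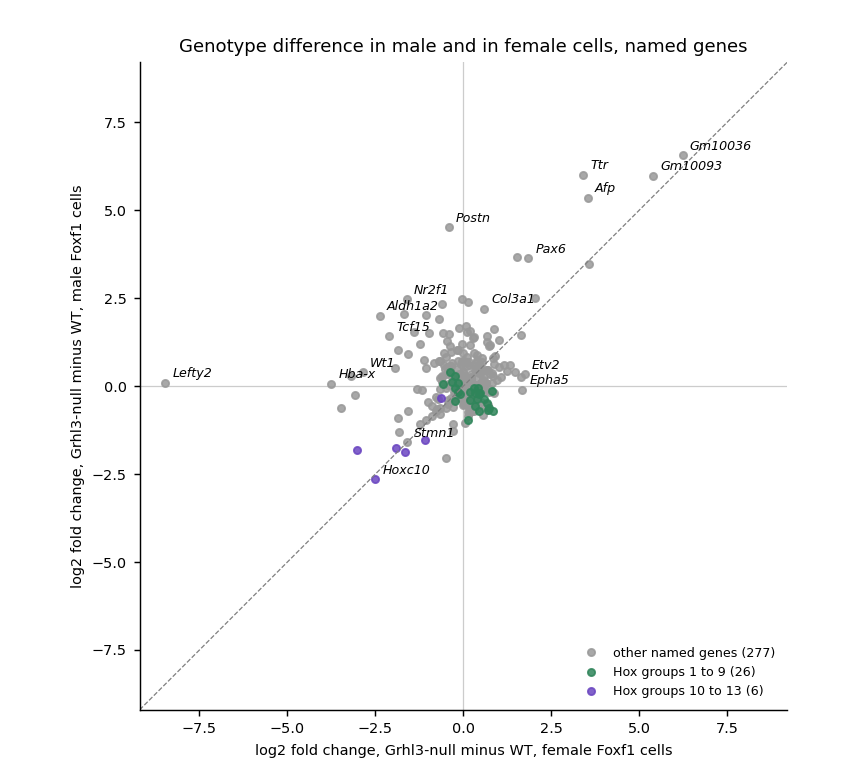
Genotype log2 fold change (*Grhl3*-null minus WT) in male (vertical axis) and female (horizontal axis) *Foxf1* cells for 309 named genes, with Hox groups 1 to 9 in green, groups 10 to 13 in purple and the line of equal change dashed. The posterior Hox genes lie in the lower left, and 21 genes called in both sexes lie in the quadrants of opposite sign.

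Among the *Foxf1* cells themselves, variation was spread over many genes. After thinning, the highest ratios of variance to mean belonged to *Hba-x* (211) and *Hbb-bh1* (99.9), which rest on single haemoglobin-rich cells, and then to *mt-Atp6* (7.86), *Tmsb4x* (7.54) and *Lefty2* (5.82). These ratios pool all libraries, so the genotype difference of *Lefty2* enters its value. *Tagln* (5.53) and *Acta2* (5.31), actin-associated genes of smooth muscle, *Krt8* (5.40) and *Etv2* (5.07) followed. The first principal component took 0.982% of the variance, with mitochondrial genes at 1 end and *Stmn1* at the other, and its median was -0.22 and -0.26 in WT and 0.98 and 0.98 in *Grhl3*-null. In male cells the medians of the genotypes overlapped (0.50 and 1.16 in WT, 1.06 and 1.24 in *Grhl3*-null), and in female cells they did not (-0.82 and -0.68 against 0.89 and 0.78). The second took 0.730%. Its high end held *Mest*, *Krt18*, *Krt8*, *Peg3*, *Dlk1* and *Vim* and its low end *Cited1*, *Cdx4*, *Hoxb9*, *Cdx2* and *Hoxc8*. Of these, *Mest*, *Cdx2* and *Hoxc8* were not called between the *Foxf1* cells and the *Nkx2-3*/*Hlx* cells. The others were, with the high-end genes lower and the low-end genes higher in the *Foxf1* cells. Its median was -1.09 and -0.93 in male and 0.61 and 0.65 in female WT cells, and 0.30 and 1.37 in male and -0.67 and -0.92 in female *Grhl3*-null cells. Over all *Foxf1* cells, the Pearson correlation of the score with the UMI number of the cell was 0.29 for the first and -0.25 for the second component. The part of depth in these medians was not tested.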

How the data were processed

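The authors made 10x 3′ libraries. Per the labels, Cell Ranger and the mm10 build were used, and the authors deposited whole-number UMI counts per gene and cell for 24239 called cells and 31055 features, before their own filters. Deposited UMIs totalled 230556666 and 224056649 for WT, and for *Grhl3*-null they totalled 232903564 and 217559026. No column was left out for want of a sample (0 such columns).

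Cells were filtered and chosen as stated above, and UMIs were summed per library and population. Genes passing filterByExpr were tested by the edgeR 4.0.16 quasi-likelihood test with TMM normalization in R 4.3.3, with the Benjamini-Hochberg adjustment over all genes tested. CPM are scaled to 1000000 UMIs of the summed cells. No p was adjusted over a list alone. The members, lists and tests were chosen with earlier results of these data known. Genes were named if they belonged to 1 of 29 lists (262 genes, 260 of them in the feature table) or were among the 10 called genes per direction with the largest log2 fold change at a mean of at least 20 CPM (5 per direction for the test between sexes). A few genes outside this rule that the text describes were named after their values were seen. These are *Rpl11*, *Hmgn2*, those of the principal components and those with the highest ratios of variance to mean. A few genes of the rule are not reported here.

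A cell was male with at least 2 UMIs of *Ddx3y*, *Eif2s3y*, *Kdm5d* and *Uty* together and no more than 2 of *Xist*, and it was female if *Xist* had 3 or more UMIs and the others no more than 1. Doublets were kept, and removing the 5% highest Scrublet scores (scanpy 1.11.5) was an alternative. Libraries of the same genotype were not copies of each other (2.97 in WT and 3.60 in *Grhl3*-null for the chi-square statistic divided by its degrees of freedom over genes), so each was counted. On simulated data, changes of 1 on the log2 scale in 200 genes (198 for the difference from the other cells) were recovered in 95.5% for the genotype test (5 wrong calls). Recovery was 100% for the *Nkx2-3*/*Hlx* (3 wrong calls), *Tbx4* (4) and *Foxf1*-zero (0) comparisons. It was 89.9% for the difference from the other cells (0) and 88% for the difference between sexes (7). The changed genes were drawn from those with enough UMIs, and all genes were given the same spread. The simulation thus did not cover genes of low counts or differences between embryos. Near copies were sought with blastn 2.17.0 (identity of at least 95% over at least 80% of a transcript). Of 311 named genes set against 141767 GENCODE transcripts, 4 returned one, namely *Gm10036*, *Gm10093*, *Gm10282* and *Hba-a2*. *Hdac1* and *Hba-a1*, partners in such pairs, returned none, so the search can miss a copy. Promoters came from RefSeq. Alternatives were other normalization and tests, other filters and gates, thinned cells, each sex, each library left out and a replicate block.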

Additional observations from a re-analysis of the deposited data

Results flagged for a closer look

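The genotype difference of the *Foxf1* cells differed from that of all other filtered cells in 107 genes with a higher and 117 genes with a lower log2 fold change, by the population by genotype term of the edgeR fit (16323 genes tested). The 10 genes with the largest such difference per direction, at a mean of at least 20 CPM, were as follows. Higher in the *Foxf1* cells were *Nkx1-2* (0.86), *Hoxd9* (0.84), *Epha5* (0.77), *Foxb1* (0.75), *Btg2* (0.74), *Dll3* (0.68), *Rbp4* (0.66), *Dll1* (0.64), *Foxc2* (0.62) and *Hes7* (0.62). With the *Nkx2-3*/*Hlx* cells in place of all other cells, 6 of the 20 differences named here were still called in the same direction, 8 kept their direction without a call and 6 changed sign (*Pitx1*, *Dll1*, *Spin2c*, *Dll3*, *Foxc2* and *Car4*). Within the sexes *Foxb1* did not rise in the *Foxf1* cells (-0.10 in male and -0.02 in female cells), and 68.1% and 69.2% of its *Grhl3*-null UMIs lay in cells whose sex could not be called. *Foxc2* was called in opposite directions, at 1.21 in male and -1.24 in female cells. Male and female fold changes in the *Foxf1* cells were both negative for *Dll3* (-0.86 and -0.90), *Dll1* (-0.61 and -0.67) and *Btg2* (-0.63 and -0.49). The pooled values of these genes were -0.36, 0.00 and -0.28. Both were positive for *Rbp4* (2.50 and 2.03) and *Nkx1-2* (0.18 and 0.95). For *Rbp4*, male cells held 68.0% of the UMIs in *Grhl3*-null replicate 1, and female cells held 65.2% in replicate 2. Signs differed for *Epha5* (-0.10 and 1.67), *Hoxd9* (-0.40 and 0.20) and *Hes7* (-0.48 and 0.09). *Btg2*, an antiproliferative gene, had 47.0 and 48.8 CPM in WT and 23.9 and 23.4 CPM in *Grhl3*-null in the other cells. Lower in the *Foxf1* cells were *Hba-x* (-2.69), *Hba-a1* (-2.68), *Hbb-bh1* (-2.31), *Hba-a2* (-2.20), *Nr2f1* (-0.94), *Pitx1* (-0.80), *Robo2* (-0.73), *Aldh1a2* (-0.68), *Spin2c* (-0.66) and *Car4* (-0.65). The 4 globin values rest on haemoglobin-rich cells of WT replicate 1, and *Hba-a2* and *Hba-a1* are near copies whose reads can be split between them. *Car4*, a carbonic anhydrase, had 68.6, 72.4, 68.5 and 69.1 CPM in the *Foxf1* cells and rose elsewhere from 40.1 and 43.1 CPM to 61.9 and 66.1 CPM.

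Male and female *Foxf1* cells had different genotype fold changes in 494 genes with a higher and 285 genes with a lower value in male cells. The 5 largest per direction were *Aldh1a2* (4.38), *Nr2f1* (4.08), *Hba-x* (3.81), *Tcf15* (3.53) and *Hbb-bh1* (3.47), and *Epha5* (-1.77), *Etv2* (-1.41), *Hoxa9* (-1.38), *Eif2s3y* (-1.37) and *Dgkk* (-1.36). *Eif2s3y* was itself used to call sex, so its value is no finding. *Hba-x* stood at 270 CPM in the female cells of WT replicate 1 and at or under 11.4 CPM in those of the other libraries.

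Outside the main measurement, the feature table holds a *LacZ* reporter sequence, which had 0 UMIs in both WT libraries and 13 and 22 UMIs in all filtered cells of the *Grhl3*-null libraries. The *Foxf1* cells held 0 and 2 of these.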

How the results depend on the processing

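Genotype calls numbered 286 higher and 140 lower. They numbered 114 and 57 with a log2 fold change of at least 1, 139 and 80 with the DESeq2 Wald test, 162 and 91 with no filter on low counts, 80 and 55 with the gate on thinned cells, and 106 and 67 with sex as a covariate. A stricter gate gave 185 higher, and female cells alone gave 276 lower. Leaving out a library gave 130 to 178 higher and 77 to 103 lower, where the lone sample of a genotype is assumed to vary like the other group. The *Nkx2-3*/*Hlx* comparison (431 and 951) gave 188 and 451 at a log2 difference of at least 1, 254 higher with DESeq2, 79 and 153 on thinned cells, and 242 and 272 higher in male and female cells. The *Tbx4* comparison (884 and 805) gave 435 and 422, 203 and 235 on thinned cells, 549 higher in male cells, and 402 and 438 in female cells. The *Foxf1*-zero comparison (413 and 1027) gave 194 and 597, 206 and 344 on thinned cells, 248 and 553 in male cells, and 629 lower in female cells. The difference from other cells (107 and 117) gave 42 and 36 at a size of at least 1, 63 to 143 higher without a library, and 41 lower with *Nkx2-3*/*Hlx* cells as the other cells. The difference between sexes (494 and 285) gave 282 and 100, and 310 to 458 higher without a library. The share difference of 1.11 points became -4.19 points in male cells, 6.34 points in female cells, 0.02 points with the stricter gate and 0.88 points on thinned cells.

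The alternatives were run on the 66 called genes of the lists or ranks. With sex as a covariate, 39 were still called in the same direction, 25 kept their direction without a call and 1 changed sign. With the gate on thinned cells these numbers were 36, 25 and 2. Genotype fold changes of the 66 genes changed sign as follows, and the cause was not tested. *Hba-x* was -3.81 to 0.13 with a library left out (0.13 without WT replicate 1), 0.15 with the stricter gate, 0.09 with doublets removed and 0.07 in male cells. On thinned cells *Cldn5* was -2.13 and *Sox2* -0.04. In male cells *Wt1* was 0.40, *Lefty2* 0.10, *Rspo1* 0.90, *Vim* 0.23, *Actc1* 0.52, *Jun* 0.52 and *Epha5* -0.10. In female cells *Tbx18* was -1.68, *Sox2* -0.00, *Nkx6-1* -0.04 and *Tcf15* -2.11, and *Tcf15* was -0.57 with sex as a covariate and -0.81 without the cells that had no sex call, an alternative chosen after seeing the data. Against other cells, *Hbb-bh1* was -3.11 to 0.15 with a library left out (0.15 without WT replicate 1), and with *Nkx2-3*/*Hlx* cells as the other cells *Pitx1* was 0.31, *Dll1* -0.27, *Spin2c* 0.04, *Dll3* -0.33, *Foxc2* -0.58 and *Car4* 0.12. In each comparison with neighbours the alternatives were run on the 20 genes named by rank, and none of these changed sign.

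Replicate numbers are shared by the genotypes, but nothing ties them. The correlation of their deviations was -0.027 over 13596 genes, and a replicate block gave 346 higher and 167 lower calls. With 2 libraries of 1 pool per genotype, differences between embryos could not be measured.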
